A study of Mus musculus with 3 samples.

Results

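Suprabasal epidermal keratinocytes are the cells of the epidermis that have left the basal layer and begun to differentiate. They were taken by their keratin counts from 3 single-cell RNA libraries of mouse skin. A cell was chosen when it held at least 5 unique molecular identifiers (UMIs, counted mRNA molecules) each of Krt1 and Krt10, more UMIs of Krt1 and Krt10 together than of Krt5 and Krt14 together, and no UMI of the leukocyte gene Ptprc. Of 26847 cells with at least 200 genes and at most 10% mitochondrial UMIs, 1541 met this rule. The counts of these 5 genes chose the cells, so their levels are given below as a description only.

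All 3 libraries came from the dorsal skin of female C3H/HeN mice aged 25 weeks. Each was 1 library from the pooled skin of 7 to 8 mice. Neg was labelled as the negative, vehicle-treated control, and the series describes its mice as unaffected. AA was the alopecia areata (AA) model, an autoimmune hair loss that the study induced by transferring cultured lymph node cells from affected donors. AA+Ab was the same model given a neutralizing antibody to the chemokine CXCL12. The skin was digested with collagenase and cells were enriched on a density gradient, so the shares below describe the suspension and not the tissue. With 1 library per group there was no replicate, no test was made, and a difference between mice and a difference between treatments cannot be told apart. Intervals given below are 95% intervals that cover counting error only.

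Basal keratinocytes make Krt5 and Krt14, which build the keratin filaments of the dividing layer. On leaving that layer they switch to Krt1 and Krt10, strengthen their desmosomes, and in the granular layer above load lipids and envelope proteins that later form the barrier. Notch receptors, calcium and factors such as Grhl and Ovol proteins take part in that switch. Keratinocytes also answer interferons through JAK and STAT proteins, and their stressed state is marked by keratins such as Krt16 and by small proline-rich proteins.

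The genes read here lie in known epidermal clusters of the mouse genome (GRCm38.p6, RefSeq). Krt1 (chr15:101845426-101850786), Krt77 (chr15:101858731-101869706) and Krt5 (chr15:101707069-101712905) share the type II keratin cluster, while Krt10 (chr11:99385254-99397449) and Krt14 (chr11:100203162-100207510) lie in the type I cluster. Sbsn (chr7:30732674-30756134), Dmkn (chr7:30763756-30781066) and Krtdap (chr7:30787905-30791089), which encode secreted proteins of differentiating epidermis, lie side by side. The 250 bases before 1 listed start of Krtdap and of Sbsn are shown because both genes mark these cells and each window holds the AP-1 motif TGANTCA (either strand), printed in capitals. Krtdap is at chr7:30787655-30787904, forward strand, and Sbsn is at chr7:30751221-30751470, forward strand. The Sbsn start used here lies inside the full span of the gene given above. Each sequence reads 5′ to 3′ on the strand of its gene.
Krtdap: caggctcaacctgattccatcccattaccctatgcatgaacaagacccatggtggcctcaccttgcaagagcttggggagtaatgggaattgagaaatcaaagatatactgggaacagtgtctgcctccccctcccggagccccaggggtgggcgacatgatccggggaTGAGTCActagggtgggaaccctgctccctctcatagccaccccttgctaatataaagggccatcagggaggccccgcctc
Sbsn: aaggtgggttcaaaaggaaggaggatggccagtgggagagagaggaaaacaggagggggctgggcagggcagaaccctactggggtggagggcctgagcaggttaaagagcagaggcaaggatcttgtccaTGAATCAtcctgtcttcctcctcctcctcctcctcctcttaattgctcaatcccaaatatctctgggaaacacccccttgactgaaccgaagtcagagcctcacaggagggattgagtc
The AP-1 letters were found in 4 of 11 spinous genes with a sequence (36.4%), in 6 of 29 granular genes (20.7%) and in 7.82% of all 27025 genes with a sequence, where any listed start counted. Such a match describes letters in a window, not a site in use.

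Several genes induced by interferon were highest in AA (below), so the windows before Igtp, a GTPase of cell-autonomous immunity, and Irf1, a factor of the interferon response, are printed as well. Capitals mark the gamma-activated site TTCNNNGAA, letters known from interferon-induced promoters, searched on both strands. Igtp is at chr11:58199306-58199555, forward strand and Irf1 at chr11:53769764-53770013, forward strand.
Igtp: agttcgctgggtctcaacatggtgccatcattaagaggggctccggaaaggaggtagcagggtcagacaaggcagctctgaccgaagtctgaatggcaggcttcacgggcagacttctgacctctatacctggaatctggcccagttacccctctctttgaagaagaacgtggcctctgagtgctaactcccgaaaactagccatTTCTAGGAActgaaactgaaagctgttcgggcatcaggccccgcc
Irf1: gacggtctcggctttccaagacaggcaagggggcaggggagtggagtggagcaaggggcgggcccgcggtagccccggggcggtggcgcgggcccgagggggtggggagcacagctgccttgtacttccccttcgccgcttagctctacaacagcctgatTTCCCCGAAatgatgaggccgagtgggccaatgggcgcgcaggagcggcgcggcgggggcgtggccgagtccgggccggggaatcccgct
The site's letters were present before 7 of 20 interferon-stimulated genes with a sequence (35%), before 3 of 14 interferon signalling genes (21.4%) and before 8.13% of all genes. The Irf1 window is before 1 of its 2 listed starts.

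The libraries differed in depth, and the chosen cells differed with them. The files held 121289374 UMIs in Neg, 137290217 in AA and 141998364 in AA+Ab. Over the chosen cells, 9698852, 10336532 and 11799987 UMIs were available, with medians of 20426, 14060 and 15248 UMIs per cell. Cells with over 40000 UMIs made up 22.6% of the chosen cells in Neg, 2.94% in AA and 9.72% in AA+Ab. A search for doublets marked 5.64%, 13.2% and 14.1% of the chosen cells, and these were kept. No barcode was chosen in more than 1 library.

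Neg held 319 suprabasal cells among 6582, AA held 646 among 10433 and AA+Ab held 576 among 9832. Their shares of the filtered cells were 4.85% (4.34 to 5.39), 6.19% (5.74 to 6.67) and 5.86% (5.40 to 6.34). The share was lowest in Neg, and the intervals of AA and AA+Ab overlapped. The condition on Ptprc had removed 12, 19 and 23 cells. Of the Ptprc-positive cells, 4.58%, 3.98% and 4.91% held at least 5 UMIs of both keratins, and whether free mRNA or doublets gave these was not tested. Those cells were shallower, with medians of 5984, 4742.5 and 4461 UMIs.

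The 5 markers of suprabasal epidermis were present in every library. Levels are given per 1000000 UMIs of the chosen cells (CPM). Krt10 stood at 9105 CPM in Neg, 10248 in AA and 9295 in AA+Ab, and Krt1 at 3138 CPM in Neg, 4282 in AA and 4188 in AA+Ab. Krtdap, a secreted peptide of differentiating keratinocytes that the rule did not use, stood at 5549 CPM in Neg, 4985 in AA and 6268 in AA+Ab. It was absent from 20, 42 and 25 cells in Neg, AA and AA+Ab. Dmkn, which encodes dermokine, stood at 2318 CPM in Neg, 2486 in AA and 2750.1 in AA+Ab, and Sbsn, which encodes suprabasin, at 2333 CPM in Neg, 1817 in AA and 2316 in AA+Ab. Krt1 and Krt10 were required by the rule, while Krtdap, Dmkn and Sbsn were not used by it and were found in every library.

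Markers of other cell types were found at low summed levels. Upper hair follicle markers, of which all 5 were detected, summed to 684 CPM in Neg, 599.9 in AA and 571 in AA+Ab, with at least 10 UMIs in 85, 83 and 107 cells. Inner root sheath markers summed to 82.2, 74.98 and 83.4 CPM, and cells with at least 3 UMIs of them made up 13.5%, 3.25% and 7.47% of the chosen cells. The 5 leukocyte markers were all detected and summed to 27.4, 43.8 and 45.0 CPM. Melanocyte markers summed to 69.8, 34.2 and 63.4 CPM, against 202, 96.6 and 188 CPM in Krt5/Krt14-dominant cells. The sebaceous genes Mc5r and Awat1 were at 0 in every library. Cdh5 and Kdr of endothelium were at 0 in Neg and AA, and the fibroblast gene Lum in Neg and AA+Ab.

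Cells just inside and just outside the rule both held suprabasal markers. With a Krt1 and Krt10 share of over 0.5 to 0.6, 78, 82 and 98 cells were just inside, and with a share of 0.4 to 0.5, 66, 63 and 67 cells were just outside. Krtdap stood at 3716 CPM inside and 2969 outside in Neg, at 2355 and 1219.5 in AA, and at 4813 and 3568 in AA+Ab. Dmkn stood at 1747 CPM inside and 1549.5 outside in Neg, at 1967 and 2121 in AA, and at 2229.5 and 2313 in AA+Ab. Krtdap was thus higher inside in every library, and Dmkn in Neg only. These are levels of summed cells, and whether the rule cuts a continuum or parts separate types was not tested. With the lower of the 2 keratins at 5 to 9 UMIs, 4, 23 and 24 cells were just inside.

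Krt5/Krt14-dominant cells of the same libraries served as a reference, chosen by at least 5 UMIs each of Krt5 and Krt14, a Krt5 and Krt14 sum at least as high as that of Krt1 and Krt10, and no Ptprc. There were 4325 in Neg, 7147 in AA and 6256 in AA+Ab. Of 7614 genes with at least 100 UMIs in the suprabasal cells of each library, 238 (3.13%) were at least 2-fold higher in suprabasal cells in all 3 libraries and 166 (2.18%) at least 2-fold lower. These ratios had 5 CPM added to both sides, and since the rule used this contrast they are a description. Of 14 spinous genes, which mark the first suprabasal layers, 11 were higher and none lower. Of 11 desmosome genes, 8 were higher, among them Dsg1a, Dsc1 and Dsp, while Dsg2 was lower. Of 17 barrier lipid genes, 8 were higher.

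The 15 highest ratios included Krt10, Krt77, Krtdap, Tesc, Krt1, Elovl4, Hal, Mt4, Ly6g6c, Krt78, Calm4 and Acer1. The log2 ratio to Krt5/Krt14-dominant cells was 4.53, 5.34 and 4.85 for Krt10, 4.44, 4.99 and 4.56 for Krt77 and 4.20, 5.35 and 4.38 for Krtdap in Neg, AA and AA+Ab. Krt77 encodes another suprabasal keratin. Elovl4, which lengthens the fatty acids of barrier ceramides, had log2 ratios of 3.70, 4.10 and 3.90. Hal, the histidase that makes urocanic acid, had 4.04, 3.63 and 3.78, and Acer1, a ceramidase, 3.23, 3.69 and 3.48. All of these genes were higher in suprabasal cells in every library. The ratio was highest in AA for Krt10, Krt77 and Krtdap, whose levels in the reference cells were lowest there. Krtdap in the reference cells was at 297, 117 and 296 CPM in Neg, AA and AA+Ab.

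Few regulators passed 2-fold in all 3 libraries. Of 15 differentiation factors 3 were higher and none lower, and of 9 Notch genes 2 were higher and 1 lower. Notch3, a Notch receptor, had log2 ratios of 1.87, 2.32 and 1.86. Zfp750, a factor of terminal differentiation, had 2.04, 2.37 and 2.11. Jag2, a Notch ligand, was lower in suprabasal cells, at 47.5 CPM in Neg, 20.2 in AA and 27.4 in AA+Ab against 102, 96.0 and 98.5 CPM in the reference cells. Notch3 and Jag2 thus lay on opposite sides in all 3 libraries. The other higher Notch gene was Nrarp, and the rest of the 9, with other receptors and ligands among them, did not pass 2-fold in all 3 libraries. Granular genes such as Ivl, Asprv1, Casp14 and Cdsn were higher, with 6 of 7 that had enough UMIs.

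Of 12 basal genes, 4 were at least 2-fold lower in all 3 libraries and none higher. Krt14, used by the rule, had log2 ratios of -1.22, -2.48 and -1.86, and Itgb1, the integrin that anchors basal cells to matrix, -1.62, -2.34 and -1.72. Of 8 cell cycle genes, 7 were lower in all 3 libraries. Mki67, a marker of cycling cells, had -1.68, -2.05 and -2.21, and Pclaf, which binds the replication clamp, -1.95, -2.62 and -2.29. Thbs1, which encodes thrombospondin, had -2.19, -2.37 and -2.37. Cycling genes were therefore lower in suprabasal cells but were not absent.

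**Figure D1:**
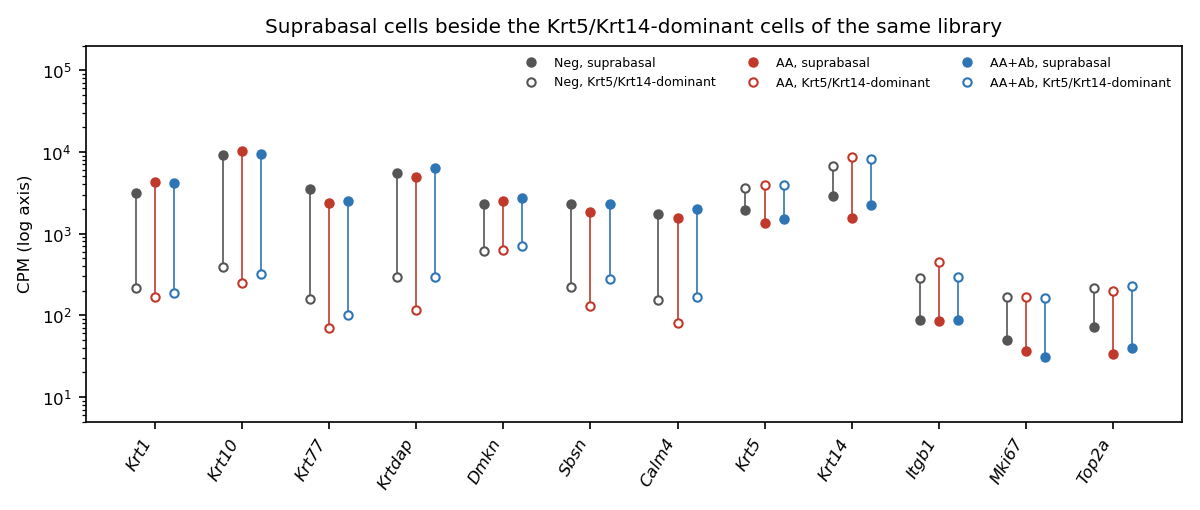
Levels of 12 genes in suprabasal cells (filled points) and in Krt5/Krt14-dominant cells (open points) of the same library, in CPM on a log axis. Krt1, Krt10, Krt77, Krtdap, Dmkn, Sbsn and Calm4 are higher in suprabasal cells in all 3 libraries, and Krt5, Krt14, Itgb1, Mki67 and Top2a are lower.

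The suprabasal cells were spread differently along the share of Krt1 and Krt10 in the sum of Krt1, Krt10, Krt5 and Krt14. Cells in the lowest range (share over 0.5 to 0.75) made up 56.7% (51.1 to 62.2) in Neg, 32.4% (28.8 to 36.1) in AA and 37.3% (33.4 to 41.4) in AA+Ab. Cells in the highest range (over 0.97) made up 11.9% (8.57 to 15.98), 27.9% (24.4 to 31.5) and 30.4% (26.6 to 34.3). The lowest range held 181, 209 and 215 cells, a larger part of the cells in Neg than in the other libraries. This share uses the genes of the rule, so its values are a description, and cells of Neg were also deeper. The role of depth was not tested.

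**Figure D2:**
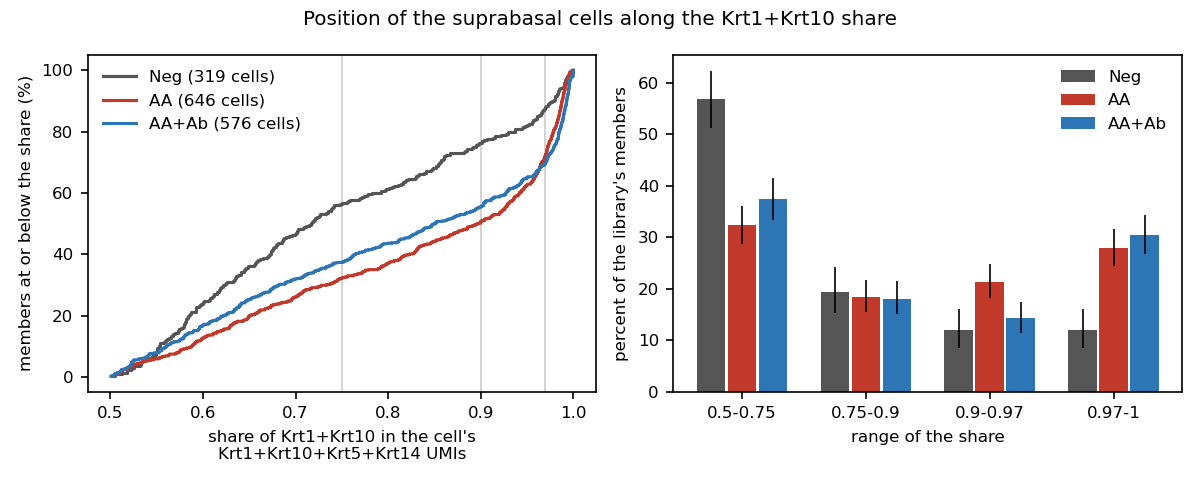
Left, cumulative percent of the suprabasal cells of each library against the share of Krt1 and Krt10 in each cell, with grey lines at 0.75, 0.9 and 0.97. Right, percent of the cells in each of 4 ranges of that share with 95% Clopper-Pearson bars. The lowest range holds 56.7% in Neg, 32.4% in AA and 37.3% in AA+Ab.

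Along this share basal genes were lower and Krtdap higher. Krt1, Krt10, Krt5 and Krt14 set the ranges and are left out of the counts that follow. Of 10 other basal genes, 8, 8 and 7 were at least 2-fold lower in the highest range than in the lowest in Neg, AA and AA+Ab, against 11%, 9.08% and 9.27% of 10331 genes with at least 100 UMIs. From the lowest to the highest range, Itgb1 went from 106 to 29.0 CPM in Neg, 144 to 27.0 in AA and 117 to 27.6 in AA+Ab. Krtdap went from 4804 to 7218 CPM in Neg, 2856 to 8449 in AA and 5058 to 8967 in AA+Ab. The direction of both was the same in every library. Mki67 went from 56.2 to 21.7 CPM in Neg, 66.5 to 4.55 in AA and 35.7 to 4.66 in AA+Ab, with its levels in the third range between those ends in Neg and AA and above both in AA+Ab. Of 13 other spinous genes, 6 were at least 2-fold higher in the highest range in AA, 1 in Neg and 1 in AA+Ab, against 2.87%, 2.39% and 1.06% of all genes. Granular genes did not share a direction by CPM. Of 14, 7 were at least 2-fold higher in the highest range in AA and 2 in AA+Ab, while 9 were at least 2-fold lower in Neg. In Neg, 13 of the 14 had most of their UMIs in cells with over 40000 UMIs. Of those Neg cells, 70.8% lay in the lowest range. Cells were also thinned to 5000 UMIs each. Neg cells with at least 3 UMIs of the granular list then made up 71.3%, 75.8%, 86.8% and 80.6% over the ranges. Those intervals overlapped. The lowest and highest ranges gave 68.3% and 82.0% in AA and 63.5% and 63.5% in AA+Ab. What depth contributes to the Neg ratios was not tested.

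**Figure D3:**
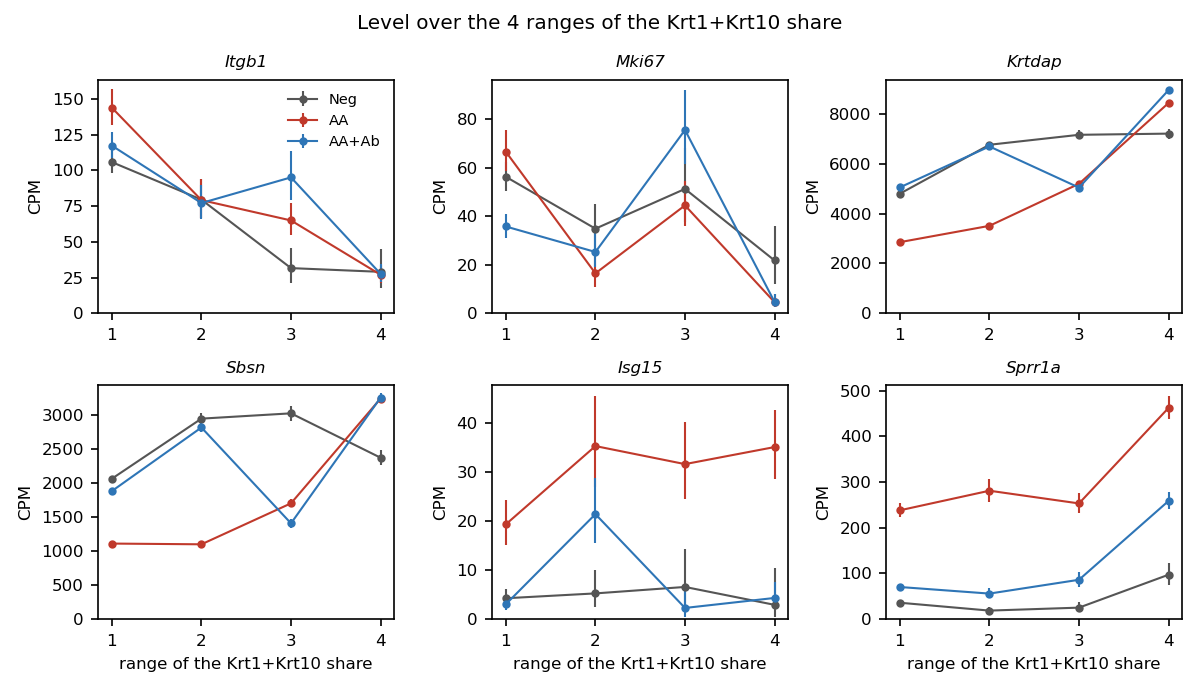
Level in CPM with 95% Poisson bars for 6 genes over the 4 ranges of the Krt1 and Krt10 share, by library. Itgb1 is lower and Krtdap is higher in the highest range than in the lowest in all 3 libraries, while Isg15 and Sprr1a are highest in AA in every range.

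The comparison of AA with Neg asked what differs in suprabasal cells of skin with hair loss. The 5 interferon-stimulated genes with enough UMIs, Irf1, Stat2, Sprr1a and Krt16 were at least 2-fold higher in AA, and Txnip and 6 of 13 cell cycle genes at least 2-fold lower. Within cells of over 40000 UMIs, 3 of the 5 interferon-stimulated genes and none of the 13 cell cycle genes passed 2-fold. Of 9505 genes with at least 100 UMIs over both libraries, 96 (1.01%) were at least 2-fold higher in AA and 170 (1.79%) at least 2-fold lower, together 2.8%, and the median log2 ratio of all of them was -0.086. Normalization by TMM moved that median to 0.029, so small ratios are best read against it. Of 25 interferon-stimulated genes, 24 were in the files and 5 had enough UMIs, namely Isg15, Ifi27l2a, Bst2, Igtp and Iigp1. All 5 were at least 2-fold higher in AA, with a median log2 ratio of 2.94, and that of Bst2 was 0.71, under 2-fold, after each cell was thinned to 5000 UMIs. The limit of 100 UMIs counts both libraries together, and Isg15, Igtp and Iigp1 held 44, 13 and 4 UMIs in Neg. These passed it through their AA counts, so the count of 5 and the median describe them and do not measure the 24 genes. The summed level of the 24 genes was 37.4 CPM in Neg, 242 in AA and 59.7 in AA+Ab.

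Isg15, a ubiquitin-like protein, was counted at 44, 297 and 76 UMIs in Neg, AA and AA+Ab, or 4.54 CPM (3.30 to 6.09) in Neg, 28.7 (25.6 to 32.2) in AA and 6.44 (5.07 to 8.06) in AA+Ab. AA lay above both other libraries with no overlap of the intervals. The log2 ratio of AA to Neg was 2.66 (2.20 to 3.15), and over the alternatives of the processing it ran from 2.47 to 3.29. Ifi27l2a, another interferon-induced gene, was at 5.46 CPM in Neg, 77.0 in AA and 14.9 in AA+Ab. Its log2 ratio was 3.82 (3.41 to 4.25), a 14.1-fold higher level in AA. Bst2, which encodes tetherin, was at 11.1 CPM in Neg, 29.2 in AA and 16.8 in AA+Ab, with a log2 ratio of 1.39 (1.07 to 1.72). AA was again the highest of the 3 for both genes.

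Igtp, Iigp1 and Irgm1 are GTPase genes of cell-autonomous immunity. Igtp was counted at 13, 106 and 26 UMIs in 13, 67 and 21 cells of Neg, AA and AA+Ab. Its log2 ratio of AA to Neg was 2.94 (2.10 to 3.89). Iigp1 was counted at 4, 319 and 15 UMIs, and the Neg count came from 1 cell, so its log2 ratio of 6.23 (4.86 to 8.11) has a wide interval. Irgm1 was counted at 19, 72 and 26 UMIs, with a log2 ratio of 1.83 (1.08 to 2.64), below the limit of 100 UMIs. The nucleic acid sensor Zbp1 was at 0 UMIs in Neg and 30 in AA, at least 9.38-fold higher in AA when 3 counts are taken as the floor of the Neg library. All 4 genes were lowest in Neg and highest in AA.

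Of 13 interferon signalling genes with enough UMIs, 2 (Irf1 and Stat2) were at least 2-fold higher in AA and none lower. The intervals of 9 lay above 0, and the median log2 ratio was 0.47. Irf1, a transcription factor, was at 21.2 CPM in Neg, 55.5 in AA and 35.8 in AA+Ab, with a log2 ratio of AA to Neg of 1.39 (1.15 to 1.62). Stat2 was at 11.8 CPM in Neg, 28.4 in AA and 13.0 in AA+Ab, with 1.27 (0.96 to 1.60). Of 15 genes of MHC class I and antigen processing, none was at least 2-fold higher or lower. The intervals of 12 lay above 0 and none below, and the median was 0.23, against -0.086 for all genes. The share of all genes with an interval clear of 0 was not computed, here or below. Such intervals hold counting error only, and other well-counted lists cleared 0 often. Of 14 spinous genes, 6 intervals lay above 0 and 6 below. H2-K1, a class I heavy chain, was at 941 CPM in Neg, 1104 in AA and 967 in AA+Ab. Its log2 ratio was 0.23 (0.19 to 0.27).

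The interferon-stimulated genes were found in a minority of the cells. After each cell was thinned to 5000 UMIs, cells with at least 3 UMIs of these genes made up 0.315% in Neg, 9.87% in AA and 1.25% in AA+Ab, from 1 of 317, 62 of 628 and 7 of 560 cells. Before thinning the shares were 12.2%, 21.2% and 9.20%, and thinned Krt5/Krt14-dominant cells gave 3.12%, 12.2% and 4.07%. AA was highest in both kinds of cells once depth was equal. Within AA the share was 7.32%, 10.7%, 9.02% and 12.9% over the 4 ranges of the Krt1 and Krt10 share, with overlapping intervals. Isg15 in AA stood at 19.3, 35.2, 31.5 and 35.0 CPM over the ranges.

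The same genes were higher in the Krt5/Krt14-dominant cells of AA. There the log2 ratio of AA to Neg was 1.56 for Isg15, 2.36 for Ifi27l2a, 1.38 for Bst2, 2.56 for Igtp and 6.92 for Iigp1. Suprabasal minus reference cells, the difference of log2 ratios was 1.11 (0.63 to 1.58) for Isg15 and 1.45 (1.05 to 1.86) for Ifi27l2a, and both intervals lay above 0. The difference was 0.0081 (-0.33 to 0.34) for Bst2, 0.38 (-0.49 to 1.25) for Igtp and -0.70 (-2.19 to 0.80) for Iigp1, and these intervals included 0. Leukocyte markers summed to 27.4 CPM in Neg, 43.8 in AA and 45.0 in AA+Ab, where 1 cell held 241 of 531 UMIs. By these sums the markers were higher in AA than in Neg. The AA+Ab sum rests in large part on that 1 cell, so it cannot rank AA+Ab against AA. What leukocyte markers contribute was not tested.

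**Figure D4:**
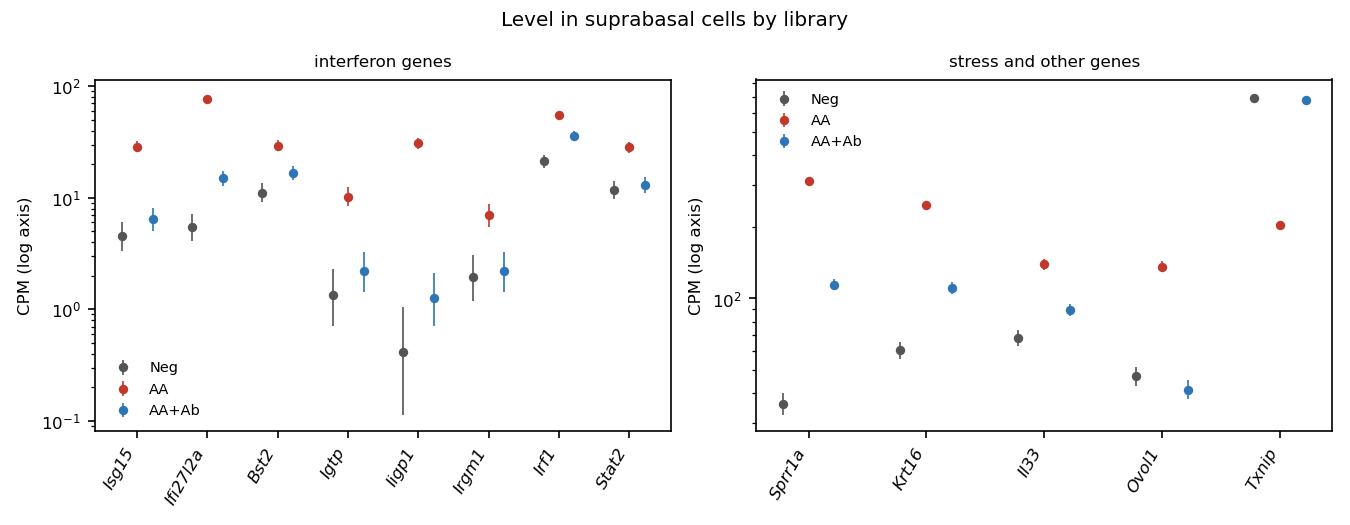
Level in suprabasal cells of 8 interferon genes (left) and 5 other genes (right) in each library, in CPM on a log axis with 95% Poisson bars. The AA points lie above those of Neg and AA+Ab for every gene except Txnip, which is lowest in AA.

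Stress and cornified envelope precursors were a further group. Sprr1a, a small proline-rich protein cross-linked into the cornified envelope, was at 36.1 CPM (32.4 to 40.1) in Neg, 310.3 (299.6 to 321) in AA and 114 (108 to 120.3) in AA+Ab. AA was highest and Neg lowest, and none of the 3 intervals overlapped. The log2 ratio of AA to Neg was 3.10 (2.94 to 3.27), with 2.90 to 3.62 over the alternatives. In Krt5/Krt14-dominant cells the ratio was 0.66. After thinning, 7.26% in Neg, 20.4% in AA and 13.4% in AA+Ab of the suprabasal cells held a UMI of Sprr1a, against 2.81%, 4.49% and 4.76% of the reference cells. Without thinning the suprabasal shares were 15.05%, 26.2% and 21.2%, and Ptprc-positive cells held it in 2.97%, 5.68% and 3.65%. Those cells were shallower, and whether free mRNA or doublets gave these shares was not tested.

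Krt16, a keratin of stressed epidermis, was at 60.6 CPM in Neg, 246 in AA and 111 in AA+Ab. Its log2 ratio of AA to Neg was 2.02 (1.89 to 2.15), and 1.28 to 2.34 over the alternatives. In Neg it was at 26.8 CPM in cells with over 40000 UMIs and at 97.6 in the others. In thinned cells Krt16 was present in 8.52% in Neg, 14.3% in AA and 7.5% in AA+Ab, so AA+Ab was not above Neg by that share. Il33, an alarmin of the interleukin-1 family, was at 68.4 CPM in Neg, 139 in AA and 89.5 in AA+Ab, with a log2 ratio of 1.03 (0.89 to 1.16), and 0.53 to 1.15 over the alternatives, so its 2-fold call was lost in some. In thinned cells Il33 was present in 24.9% in Neg, 23.7% in AA and 23.04% in AA+Ab, and without thinning in 58.0%, 38.7% and 43.6%, so the shares did not follow the CPM. Of 7 stress genes with enough UMIs, 4 were at least 2-fold higher in AA and none lower. The other 2 of the 4 were S100a8 and S100a9, subunits of calprotectin, which rested on single cells, since 1 AA cell held 160 of 213 UMIs of S100a8. Sprr1b, the partner of Sprr1a, was counted at 11, 222 and 130 UMIs, and 1 AA cell held 121 of them. Its log2 ratio was 4.24 (3.38 to 5.27), and 3.43 to 5.30 over the alternatives, the highest without the 2 top cells of each library.

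Among the genes with the largest ratios by the naming rule, several rested on few cells. Cstdc5, a cystatin-like gene, and Il6, the cytokine, were counted at 12, 355 and 1198 UMIs and at 5, 105 and 43 UMIs in Neg, AA and AA+Ab. Il6 had a log2 ratio of 4.30 (3.03 to 5.95) in 5, 25 and 14 cells. At the low end, S100a3, a hair cuticle gene, had a log2 ratio of -3.65 that became 0.29 without the 2 top cells, because 1 Neg cell held 226 of 247 UMIs. Syt1, a synaptotagmin, was counted at 250, 24 and 36 UMIs, Cdh6, a cadherin, at 282, 36 and 160 UMIs and Rerg, a small GTPase, at 104, 14 and 80 UMIs, all lowest ratios by the rule.

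Differentiation factors and heat shock genes each held a single gene that passed 2-fold. Ovol1, a zinc finger factor of epidermal differentiation, was at 47.1 CPM in Neg, 136 in AA and 41.4 in AA+Ab. AA was highest, with a log2 ratio to Neg of 1.53 (1.37 to 1.68) and 0.44 in the reference cells. It was the only one of 15 differentiation factors with enough UMIs that was at least 2-fold higher. Dnajb1, a co-chaperone of heat shock proteins, was the only one of 17 dissociation and heat shock genes to pass 2-fold, with 1.07 (1.03 to 1.12). Over the alternatives it ran from 0.74 to 1.195, so its 2-fold call was lost in some. Across these 17 genes the intervals of 12 lay above 0 and of 3 below. Their median log2 ratio was 0.20, against -0.086 for all genes.

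Txnip, which binds thioredoxin and limits glucose uptake, went the other way. It was chosen after values were seen. It was counted at 6728, 2094 and 8016 UMIs, or 694 CPM in Neg, 203 in AA and 679 in AA+Ab. AA lay below both other libraries. The log2 ratio of AA to Neg was -1.78 (-1.85 to -1.70) in suprabasal cells and -1.79 in the reference cells. After thinning, 83.6% in Neg, 46.0% in AA and 80.2% in AA+Ab of the suprabasal cells held a UMI of it, and in Ptprc-positive cells the unthinned shares were 72.1%, 51.8% and 64.4%. Phlda1, also chosen after values were seen, was at 7.22 CPM in Neg, 38.8 in AA and 11.2 in AA+Ab, with 2.43 (2.06 to 2.81).

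Of 13 cell cycle genes with enough UMIs, 6 (Top2a, Ccna2, Cdk1, Ube2c, Birc5 and Mcm2) were at least 2-fold lower in AA and none higher, with a median log2 ratio of -0.85. Cdk1, the mitotic kinase, was counted at 219, 89 and 133 UMIs, with a log2 ratio of -1.39 (-1.76 to -1.03). Mki67 was at 49.5 CPM in Neg, 36.7 in AA and 31.0 in AA+Ab, with -0.43 (-0.63 to -0.24). Both genes were lower in AA and in AA+Ab than in Neg by CPM. When only cells with at most 40000 UMIs were used, 10 genes had enough UMIs within those cells, 2 of them were at least 2-fold lower and the median was -0.61. Of all 13 genes, 10 were lower and 3 higher in AA in those cells, with 4 at least 2-fold lower. Within cells of over 40000 UMIs, 7 of the 13 were higher and 6 lower in AA than in Neg, and none passed 2-fold. There Mki67 was at 73.8 CPM in Neg, 144 in AA and 45.5 in AA+Ab. When the 4 ranges were weighted alike in both libraries, 2 were lower and the median was -0.71. In thinned cells Mki67 was present in 7.57% in Neg, 3.98% in AA and 5.89% in AA+Ab, and in 19.4%, 15.7% and 18.4% of the reference cells. Thinned cells with at least 3 UMIs of the cell cycle list made up 35.0% in Neg, 25.2% in AA and 38.6% in AA+Ab, so AA+Ab was not below Neg by that share.

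Basal and Notch genes differed little. Of 12 basal genes 1, Lamb3, a chain of laminin 332, was at least 2-fold lower in AA, with a median log2 ratio of -0.39 that became -0.00026 with the ranges weighted alike. Of 10 Notch genes 1, Jag2, was at least 2-fold lower, at 47.5 CPM in Neg, 20.2 in AA and 27.4 in AA+Ab, with a log2 ratio of -1.23 (-1.48 to -0.99). Of 11 desmosome genes, 20 barrier lipid genes, 11 calcium genes and 9 genes of RIPK1 and cell death, none was at least 2-fold higher or lower. Dsp, the desmosome linker desmoplakin, had a log2 ratio of 0.073 (0.04 to 0.11). Ripk1, a kinase of inflammation and cell death, was counted at 287, 418 and 431 UMIs, with 0.45 (0.23 to 0.67). Its Neg and AA intervals did not overlap, at 29.6 CPM (26.3 to 33.2) in Neg, 40.4 (36.7 to 44.5) in AA and 36.5 (33.2 to 40.1) in AA+Ab. In thinned cells Ripk1 was present in 12.9% (9.44 to 17.1) in Neg, 15.9% (13.1 to 19.0) in AA and 15.4% (12.5 to 18.6) in AA+Ab. Those intervals overlapped. Without thinning the shares were 47.3%, 37.9% and 44.4%, highest in Neg.

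The comparison of AA+Ab with AA asked what differs when the model received the antibody. It shares the AA library with the comparison above, so a high or low value in AA moves both. Of 9526 genes with enough UMIs, 56 (0.588%) were at least 2-fold higher in AA+Ab and 122 (1.28%) at least 2-fold lower, together 1.87%. Of 6 interferon-stimulated genes with enough UMIs, 5 were at least 2-fold lower in AA+Ab and none higher, with a median log2 ratio of -2.29. Here too genes low in AA+Ab passed the limit on UMIs through their AA counts, so this count is a description. Isg15 had -2.16 (-2.54 to -1.79) and Ifi27l2a -2.37 (-2.61 to -2.13). A single AA+Ab cell held 36 of 76 UMIs of Isg15, and a single cell held 87 of 176 of Ifi27l2a. Without the 2 top cells of each library the ratios were -2.92 and -3.22.

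Igtp had a log2 ratio of AA+Ab to AA of -2.22 (-2.90 to -1.59) and Iigp1 one of -4.60 (-5.46 to -3.86). Bst2 had -0.80 (-1.07 to -0.54) and Stat2 -1.13 (-1.42 to -0.85). All of these genes were lower in AA+Ab, with the whole interval below 0. Cxcl9, a T cell attractant, was also among the 5, but 1 AA cell held 96 of its 99 UMIs. Of 15 genes of MHC class I and antigen processing none was at least 2-fold lower, while the intervals of 13 lay below 0. Their median was -0.31, against -0.010 for all genes. In the Krt5/Krt14-dominant cells Isg15 had -1.90, Igtp -2.07 and Iigp1 -3.12.

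Ovol1 and Txnip, which stood apart in AA, were closer to Neg in AA+Ab. Ovol1 had a log2 ratio of AA+Ab to AA of -1.71 (-1.86 to -1.56). Txnip was higher in AA+Ab, with 1.75 (1.68 to 1.82). Tsc22d3, a glucocorticoid-induced leucine zipper protein chosen after values were seen, was at 135 CPM in Neg, 78.5 in AA and 209 in AA+Ab, with 1.41 (1.30 to 1.53). Each of these 3 genes passed 2-fold, and each kept its direction in all alternatives run.

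Envelope and stress genes differed less evenly. Sprr1a had a log2 ratio of AA+Ab to AA of -1.44 (-1.54 to -1.35) and Krt16 one of -1.15 (-1.25 to -1.05), both lower in AA+Ab. Krt6a, a stress and companion layer keratin, was higher, at 6, 14 and 87 UMIs, with 2.44 (1.62 to 3.37). Of 9 stress genes with enough UMIs, 2 were at least 2-fold higher and 2 at least 2-fold lower. Of 17 dissociation and heat shock genes the intervals of 16 lay below 0, with a median of -0.34, against -0.010 for all genes. Among them Nr4a1, an immediate early nuclear receptor, passed 2-fold with -1.17 (-1.25 to -1.08). Of 10 Notch genes none passed 2-fold. Hes1, a Notch target, was at 153 CPM in Neg, 158 in AA and 83.1 in AA+Ab, with -0.93 (-1.04 to -0.81). Of 12 cell cycle genes none passed 2-fold, with a median of 0.34.

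The third comparison set AA+Ab beside Neg and shares both libraries with the others. Of 9658 genes with enough UMIs, 27 (0.28%) were at least 2-fold higher in AA+Ab and 102 (1.06%) at least 2-fold lower, together 1.34%. Of 3 interferon-stimulated genes with enough UMIs, 1 was higher, Ifi27l2a, with a log2 ratio of 1.45 (1.00 to 1.92). It became 0.56 without the 2 top cells of each library and ran from 0.23 to 2.03 over the alternatives. Isg15 had 0.51 (-0.049 to 1.08) and Igtp 0.72 (-0.30 to 1.80), and both intervals included 0. Ovol1 had -0.19 (-0.37 to 0.0019) and Txnip -0.03 (-0.077 to 0.017), and these intervals included 0 as well. For these 4 genes no difference between AA+Ab and Neg was detectable at this depth.

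A few differences from Neg were found in AA+Ab. Sprr1a was higher, with 1.66 (1.49 to 1.83), and 1.24 to 2.28 over the alternatives. Sprr1b was higher too, with 3.28 (2.39 to 4.32). Areg, amphiregulin, an epidermal growth factor chosen after values were seen, was at 10.1 CPM in Neg, 28.0 in AA and 33.7 in AA+Ab, with 1.74 (1.42 to 2.07). All 3 were also higher in AA than in Neg. Of 10 Notch genes none passed 2-fold, but the intervals of 9 lay below 0, with a median of -0.49, against -0.10 for all genes. Of 13 cell cycle genes, 2 (Cdk1 and Birc5) were at least 2-fold lower, with a median of -0.67.

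MHC class II genes appeared higher in AA+Ab, and 1 cell carried much of it. Of 6 with enough UMIs, 3 (H2-Ab1, H2-Eb1 and Cd74) were at least 2-fold higher than in Neg. A single cell held 223 of 435 UMIs of Cd74, the invariant chain, and 83 of 128 of H2-Ab1, a class II chain. Without the 2 top cells of each library the log2 ratios were 0.07 for Cd74 and 0.47 for H2-Ab1. That same library had 1 cell with 241 UMIs of leukocyte markers. Krt6b, a stress keratin, and the cystatin genes Stfa1 and Stfa3 were among the 5 largest ratios, at 1, 3 and 247 UMIs for Krt6b, 4, 58 and 263 UMIs for Stfa1 and 16, 304 and 367 UMIs for Stfa3. Of the Krt6b UMIs, 247 lay in 3 cells of AA+Ab.

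Several granular genes were counted mostly in the deepest cells. Of 14 with at least 100 UMIs over the libraries, 13 in Neg, 4 in AA and 8 in AA+Ab had over 50% of their UMIs in cells with over 40000 UMIs. Over all suprabasal cells, Cdsn, which encodes the adhesive corneodesmosin, was at 44.5 CPM in Neg, 10.7 in AA and 31.3 in AA+Ab, with a log2 ratio of AA to Neg of -2.05 (-2.37 to -1.75). Flg2, a filaggrin-like barrier protein, had -1.63 (-2.18 to -1.11), and Kprp, a proline-rich envelope protein, -1.66 (-2.25 to -1.11). These genes were lower in AA. Of 11 granular genes with enough UMIs, 4 were at least 2-fold lower in AA and none higher, while of 12 tested between AA+Ab and AA, 4 were at least 2-fold higher. The fourth lower gene was Lor, which encodes loricrin, and 1 Neg cell held 105 of its 196 UMIs.

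Cells with over 40000 UMIs, of which there were 72 in Neg, 19 in AA and 56 in AA+Ab, held most UMIs of Cdsn. In Neg those cells held 429 of 432 UMIs of Cdsn, 119 of 119 of Flg2 and 107 of 107 of Kprp, from 52.3% of all UMIs of the suprabasal cells. In AA they held 102 of 111 of Cdsn from 10.1%. Within these deep cells Cdsn was at 84.6, 97.5 and 105 CPM in Neg, AA and AA+Ab, and within the others at 0.648, 0.969 and 2.02 CPM. Flg2 was at 23.5, 25.8 and 31.5 CPM in deep cells and at 0, 1.51 and 0.948 CPM in the others. Klk5, a peptidase of desquamation, was at 73.8, 80.3 and 76.1 CPM in deep cells and 4.97, 9.69 and 11.4 CPM in the others, and Calml3, a calmodulin-like protein, at 65.9, 56.4 and 75.2 CPM and 6.05, 9.04 and 9.84 CPM. Lor was an exception, at 33.5, 8.60 and 13.7 CPM in deep cells and 5.61, 8.50 and 7.23 CPM in the others. Cdsn, Flg2, Klk5 and Calml3 were thus higher in deep cells of every library, and their levels there were closer between libraries than over all cells.

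Using only cells with at most 40000 UMIs turned the direction of several of these ratios. The log2 ratio of AA to Neg became 0.58 for Cdsn, from 9 and 3 UMIs, and 0.58 for Calml3. It became 0.96 for Klk5 and 0.60 for Lor. These cells hold too few UMIs of Cdsn for a firm value. Doublets were marked for 14 of the 72 deep cells in Neg, 8 of 19 in AA and 20 of 56 in AA+Ab, and what doublets contribute to the deep cells was not tested.

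Interferon and stress genes differed in how they varied with depth. Isg15 was at 5.92, 22.0 and 16.3 CPM in deep cells of Neg, AA and AA+Ab, and at 3.02, 29.5 and 2.49 CPM in the others. Sprr1a was at 36.5, 179 and 68.4 CPM in deep cells and at 35.6, 325 and 132 CPM in the others. Txnip was at 620.0, 207 and 571 CPM and 774, 202 and 722 CPM. AA was the highest library for Isg15 and Sprr1a and the lowest for Txnip in both classes. Ifi27l2a, in contrast, was at 4.74, 26.8 and 33.9 CPM in deep cells and at 6.26, 82.7 and 7.35 CPM in the others. Bst2 was at 9.27, 9.56 and 17.2 CPM in deep cells and at 13.2, 31.4 and 16.6 CPM in the others. For both, AA+Ab was the highest in deep cells and AA in the others. S100a8 was at 0.789, 0 and 5.94 CPM in deep cells, where AA was below Neg, and so was S100a9 at 1.78, 0 and 5.35 CPM. In the shallower cells all 5 interferon-stimulated genes were at least 2-fold higher in AA than in Neg, and in deep cells 3 of 5 were. Bst2 and Iigp1 were nearly level in deep cells, with Iigp1 at 0.789 CPM in Neg and 0.956 in AA. The Neg value of Iigp1 rested on 4 UMIs of 1 cell.

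**Figure D5:**
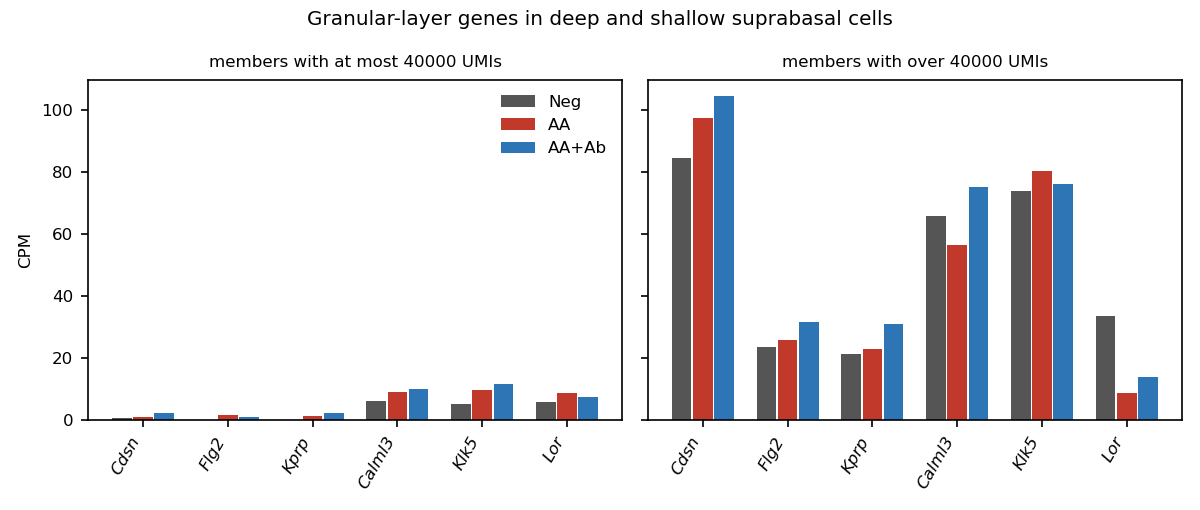
Level in CPM of 6 granular-layer and protease genes in suprabasal cells with at most 40000 UMIs (left) and over 40000 UMIs (right), by library. Cdsn is at 0.648, 0.969 and 2.02 CPM in the shallower cells and at 84.6, 97.5 and 105 CPM in the deeper cells of Neg, AA and AA+Ab.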

How the data were processed

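The deposited values were raw UMI counts per gene and barcode in 3 matrices, one per library of dorsal skin. Per the labels and methods, the authors made 10x 3′ libraries, aligned reads to mm10 and counted UMIs with Cell Ranger 7.2.0, without a normalization. Which annotation release they counted on is not given in the sources used here. Barcodes with at least 200 genes and at most 10% mitochondrial UMIs were kept, and the stated keratin rule was applied. Members and gene lists were chosen with earlier results of these data known. UMIs were summed over the chosen cells of a library and divided by all their UMIs to give CPM. Sums have exact Poisson intervals, ratios exact conditional intervals and shares Clopper-Pearson intervals, all at 95%. The interval of a difference of log2 ratios is a normal approximation. With 1 library per group no p-value or SD was computed. A gene counted as higher or lower from a 2-fold ratio among genes with at least 100 UMIs over both libraries. Doublets were scored from 2 simulated doublets per cell in 20 principal components, marked at 0.8% per 1000 barcodes, and kept.

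The genes named were those of 20 gene lists with the highest counts or ratios, the 5 largest and 5 smallest ratios of each comparison, and the 15 highest and 10 lowest against Krt5/Krt14-dominant cells. Txnip, Tsc22d3, Phlda1 and Areg were added after values were seen. Some older symbols were absent from the files, and no value is given for them. The calculation of the ratios was checked on simulated counts with 200 changed genes per comparison. There 186 of 186, 187 of 187 and 189 of 190 genes with enough UMIs were recovered among 9464, 9479 and 9651 genes. The simulated sums had Poisson error only, without variation between cells, and every set change was larger than 2-fold. This recovery therefore does not show how well the calls hold where depth or single cells matter. Motifs were searched in RefSeq windows of 250 bases before each start. The interferon-stimulated response element and some genes of the lists and ranks are not reported here. Python 3.11.15, numpy 2.4.6, scipy 1.17.1, pandas 2.3.3, scikit-learn 1.9.0, matplotlib 3.10.9 and edgeR 4.0.16 (TMM factors only) were used. The alternatives were other limits of the rule, other scaling, thinning to 5000 UMIs, equal weights of the 4 ranges, removal of doublets or of cells with markers of other lineages, and other filters. Restriction to cells with at most 40000 UMIs and removal of the 2 cells with the most UMIs were added after seeing the data.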

Additional observations from a re-analysis of the deposited data

Results flagged for a closer look

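Listed here are 7 genes for which the log2 ratio between libraries had the opposite sign in suprabasal cells and in Krt5/Krt14-dominant cells. They are not all such genes, and in no case was the difference between the 2 kinds of cells tested. With 1 library per group each ratio rests on 1 library a side. Crct1, a cornified envelope gene, had a log2 ratio of AA to Neg of -1.33 in suprabasal cells and 1.21 in the dominant cells, and of AA+Ab to Neg of -2.67 and 1.95. A single Neg cell held 100 of 146 UMIs of Crct1. Fabp4, a fatty acid carrier, had a ratio of AA+Ab to Neg of 1.90 against -0.76, and Krt35, a hair shaft keratin, 0.99 against -0.93. Between AA+Ab and AA, Klk10, a kallikrein peptidase, had 0.83 against -0.59, Krt17, a follicle and stress keratin, -0.71 against 0.70, and Krt79, an upper follicle keratin, -0.84 against 1.61. S100a8 had -1.24 against 1.05 in the same comparison, and a single AA cell held 160 of 213 UMIs of it.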

How the results depend on the processing

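Counting depth, 1 library per group and single cells with many UMIs of a gene limit these results. No paired analysis was possible because each group has 1 library. Of the log2 ratios of single genes over the settings, 1451 stayed within the spread of the main value, 326 moved and 40 turned sign. These ratios are of genes at least 2-fold higher or lower in the main setting, not of every gene named. The tally therefore does not measure how well direction holds for smaller ratios. Of the values that answer a comparison, such as shares, ranges and counts of genes, 106 stayed and 39 moved. Those values were marked only as stayed or moved, and whether they kept direction was not tested. The cause of these moves was not tested.

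With Krt1 and Krt10 over 2 times Krt5 and Krt14, the cells were 2.96% of Neg, 4.82% of AA and 4.24% of AA+Ab. Without cells of other lineages they were 4.01% of Neg and 5.25% of AA+Ab. Without doublets the highest range held 31.6% in AA and 35.4% in AA+Ab.

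Counts of genes at least 2-fold higher or lower moved as follows. In AA against Neg, thinning gave 46 higher and 29 lower, a minimum of 20 UMIs 242 and 630, no filter 2111 and 3505, and a fold of 1.5 314 and 641. The stricter keratin ratio gave 107 lower, and cells with at most 40000 UMIs 79 lower. In AA+Ab against AA, thinning gave 15 and 65, a minimum of 20 UMIs 263 and 323, no filter 2560 and 2645, and a fold of 1.5 277 and 606. The stricter ratio gave 37 higher, and cells with at most 40000 UMIs 26 higher. In AA+Ab against Neg, thinning gave 4 and 42, a minimum of 20 UMIs 115 and 456, no filter 2058 and 3110, a fold of 1.5 88 and 722, and cells with at most 40000 UMIs 42 and 65. Median-of-ratios factors gave 61 lower and TMM factors 66 lower.

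The following log2 ratios turned sign. In AA against Neg, the stricter ratio gave S100a3 1.13. Removal of doublets gave Dcn 0.060 and Krt71 -0.64. Removal of cells of other lineages gave Crct1 2.08, Dcn 0.056, Krt71 -0.98, Lor 0.079 and S100a3 0.58. Thinning gave Crct1 0.34, Kprp 0.28 and Krt71 -0.31. Cells with at most 40000 UMIs gave Calml3 0.58, Cdsn 0.58, Crct1 1.95, Dcn 1.19, Ereg 0.58, Klk5 0.96, Lor 0.60 and S100a3 0.32. Removal of the 2 top cells gave Krt71 -0.94 and S100a3 0.29. In AA+Ab against AA, thinning gave Krt35 -0.041, cells with at most 40000 UMIs gave Flg2 -0.67, Krt35 -1.15 and S100a3 -0.067, and removal of the 2 top cells gave Cstdc5 -0.73. In AA+Ab against Neg, the stricter ratio gave Cd74 -0.29, Cdh6 0.023, Crct1 0.043, H2-Ab1 -0.29, H2-Eb1 -0.0025 and S100a3 3.18. Removal of doublets gave Cd74 -0.024 and Cdh6 0.67, and removal of cells of other lineages gave Crct1 0.30 and S100a3 0.89. Cells with at most 40000 UMIs gave Cdh6 0.27, Lor 0.37 and S100a3 0.25, and removal of the 2 top cells gave S100a3 1.52.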
